A study of Apis mellifera with 12 samples.

Results

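Gr10 is the gustatory receptor gene of the honey bee (Apis mellifera) that is known as an amino acid taste receptor, and its transcript level in worker antennae is described here. It was taken as the row named Gr10 in the deposited count table, 1 gene of 12319. The antennae came from 12 libraries, 3 each of defenders, foragers (bees that fetch nectar and pollen), nurses (bees that feed the brood) and newly emerged workers. The labels give no age, colony, strain, number of bees per library or treatment, and they do not say what the defenders had done, so differences between tasks cannot be told apart from differences in age. Nor do the labels say whether the libraries of a group came from separate bees, so p-values refer only to the spread among the libraries, which may be technical. The library totals ran from 66708813 to 119703929 counts, and 11271 genes were tested.

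Gustatory receptors are membrane proteins of taste neurons that work as ion channels opened by their ligands. The honey bee has few of them beside its many odorant receptors; the best studied respond to sugars, and Gr10 responds to amino acids. In earlier published work the Gr10 transcript was also found in the hypopharyngeal glands of the head, where nurses make brood food, and was linked to nursing. The antenna carries taste hairs as well as odour hairs. No other gene with a numbered gustatory receptor symbol is in the count table: the RefSeq gene list of the Amel_HAv3.1 assembly gives 1 such gene by symbol or synonym, so other gustatory receptors, if counted under LOC identifiers, were not analysed here.

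Gr10 was highest in nurse antennae and lowest in forager antennae. Levels are in CPM, a gene's counts relative to its library's total after scaling with TMM factors. The defender libraries held 3.30, 3.70 and 4.68 CPM. The forager libraries held 2.45, 2.47 and 2.98 CPM, and the nurse libraries 6.40, 4.90 and 5.16 CPM. The newly emerged libraries held 2.85, 2.97 and 3.18 CPM. Every nurse library thus lay above every library of the other groups, every defender library lay above every forager and newly emerged library, and the forager and newly emerged libraries overlapped. The group means were 3.89 ± 0.712 CPM in defenders, 2.63 ± 0.299 CPM in foragers, 5.49 ± 0.803 CPM in nurses and 3.00 ± 0.168 CPM in newly emerged workers (SD, n = 3 each). Antennae are a mixture of cells, so fewer Gr10 cells and less Gr10 RNA per cell cannot be told apart.

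**Figure D1:**
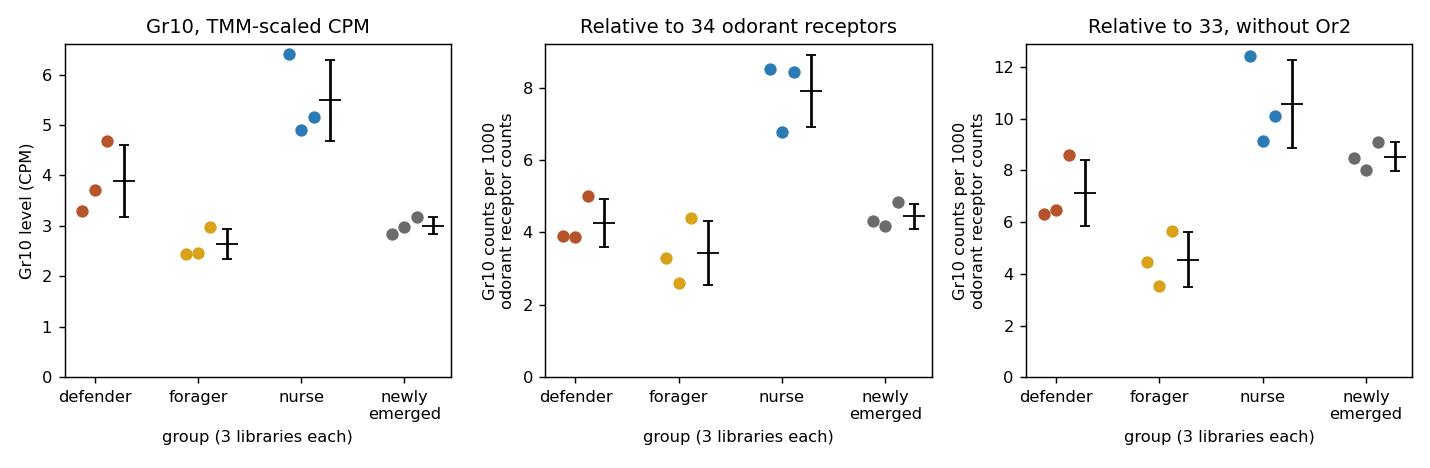
Gr10 in each library (points) by group, as CPM (left), as counts per 1000 counts of 34 odorant receptor genes in the same library (middle) and per 1000 counts of 33 of them, without the co-receptor Or2 (right); bars are mean ± SD (n = 3). The nurse libraries lie at 4.90 to 6.40 CPM and at 6.77 to 8.51 counts per 1000, above all others, but without Or2 the lowest nurse library (9.15) is next to the highest newly emerged one (9.10).

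In most groups the Gr10 level varied more between libraries than counting error allows. Gr10 had 201 to 597 counts per library, which gives a counting error of 4.09% to 7.05%. The coefficient of variation between libraries was 18.3% in defenders, 11.4% in foragers, 14.6% in nurses and 5.61% in newly emerged workers. In newly emerged workers the spread and the counting error were of like size. The widest group was the defenders, whose highest library was at 1.42 times the lowest, and the narrowest was the newly emerged workers at 1.12 times.

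Gr10 passed the test of whether any of the 4 groups differed (edgeR quasi-likelihood F = 17.1, adjusted p = 0.000936). Over all genes tested, 48.5% passed that test, and Gr10 ranked 1520 of 11271 by p. An exact permutation test of the Gr10 values alone, over all 15400 ways of dividing the 12 libraries into 4 sets of 3, gave p = 0.000195, with 3 divisions as uneven as the one by task; the smallest p it can give is 6.49e-05. Over all genes tested, nurses had the highest mean for 18.7% of genes and foragers the lowest for 22.9%, and both held for 3.32%.

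Nurses had more Gr10 transcript than newly emerged workers. The level was 5.49 CPM in nurses against 3.00 CPM in newly emerged workers, 1.83-fold higher (95% interval 1.43 to 2.34). The log2 fold change was 0.87 with a standard error of 0.16 (edgeR, adjusted p = 0.00148). In this comparison 39.6% of all genes passed with 18.9% higher and 20.7% lower, so a call there is common. The near-even split depended on scaling: higher genes made up 47.7% of the calls under TMM and 63.9% once upper-quartile factors were used. The libraries of the groups did not overlap, as for 52.3% of all genes tested.

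Foragers had less Gr10 transcript than nurses. The level was 2.63 CPM in foragers against 5.49 CPM in nurses, or 0.479 times the nurse level (95% interval 0.374 to 0.614). The log2 fold change was -1.06 with a standard error of 0.16 (edgeR, adjusted p = 0.00471). Calls were much rarer here: 4.01% of genes passed, with 1.91% higher and 2.1% lower, and Gr10 ranked 74 of 11271 by p. That share varied with the libraries used: the 452 calls became 176 without nurse library 2, 259 without forager library 1, 288 without forager library 2 and 111 in a fit of the 6 libraries compared. DESeq2 called 888, and Gr10 was among the calls each time. The libraries of the groups did not overlap, as for 18.1% of all genes tested. Both this comparison and the one of nurses with newly emerged workers use the same nurse libraries.

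Defenders lay between nurses and the other groups, and none of their 3 comparisons passed in the edgeR fit of all 12 libraries. The level was 3.89 CPM in defenders against 5.49 CPM in nurses, 0.710 times the nurse level (95% interval 0.556 to 0.906), with a log2 fold change of -0.49 (adjusted p = 0.0756). Of all genes tested 7.74% passed, 3.11% as lower; these 872 calls became 1428 without nurse library 1 and 99 to 309 without any other 1 of the 6 libraries. The libraries did not overlap, as for 38% of genes. With upper-quartile factors the adjusted p of that comparison was 0.0499, and with DESeq2 it was 0.0250. On simulated data with 3 libraries per group DESeq2 called false genes at well above its nominal rate, while edgeR stayed nearer to it. In that simulation every gene had the same spread beyond counting error, and few genes changed, in nurses only. Its rates may therefore differ from those in these data, but they bear on how each DESeq2 p-value and count given here is read. Against foragers, defenders were at 3.89 CPM and foragers at 2.63 CPM, 1.48-fold (95% interval 1.16 to 1.89), with a log2 fold change of 0.57 (adjusted p = 0.0767, and 0.0159 with DESeq2). No gene passed between defenders and foragers in the edgeR fit of all 12 libraries (0% of all genes tested), although 2705 genes had an unadjusted p under 0.05. The smallest adjusted p was 0.0544, and Gr10 ranked 690 of 11271 by p. The count of calls depended on the model as well as on the libraries in the fit. With the 6 libraries compared edgeR called 876 genes, and with the 9 libraries other than nurses 975. Over all 12 libraries it called 667 with the replicate number as a block, and DESeq2 called 1278. Leaving out 1 defender or forager library gave 0 to 1 calls. Defender and forager libraries of the same number deviated together from their group means, in 3 of 3 pairs. In the 9 libraries with the number as a block edgeR called 1246 genes, Gr10 among them (log2 fold change 0.56, adjusted p = 0.0286, against 0.0624 in the same libraries without the block). The defender and forager libraries of Gr10 did not overlap, as for 32% of genes.

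Between defenders and newly emerged workers the Gr10 levels were 3.89 and 3.00 CPM, a ratio of 1.30 (95% interval 1.02 to 1.66) with an adjusted p of 0.0953 (edgeR); 34.4% of genes passed there, and the libraries of 54.8% did not overlap. Foragers and newly emerged workers were closest, at 2.63 and 3.00 CPM, a ratio of 0.877 (95% interval 0.684 to 1.12; adjusted p = 0.364, edgeR), in a comparison where 47.9% of genes passed and the libraries of 56.3% did not overlap. The order of the means was thus nurses, defenders, newly emerged workers and foragers from high to low. None of the 3 neighbouring pairs in that order passed in the edgeR fit of all 12 libraries, so nurses and defenders, defenders and newly emerged workers, and newly emerged workers and foragers were not separated by that test. That fit had no replicate block. With the block in the 9 libraries other than nurses, adjusted p was 0.0541 for defenders and 0.253 for foragers, both against newly emerged workers (edgeR). Taken alone, each pair of 3 against 3 libraries cannot go below p = 0.1 in a two-sided exact permutation test, and p was 0.1 for each pair whose libraries did not overlap and 0.3 for foragers against newly emerged workers.

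**Figure D2:**
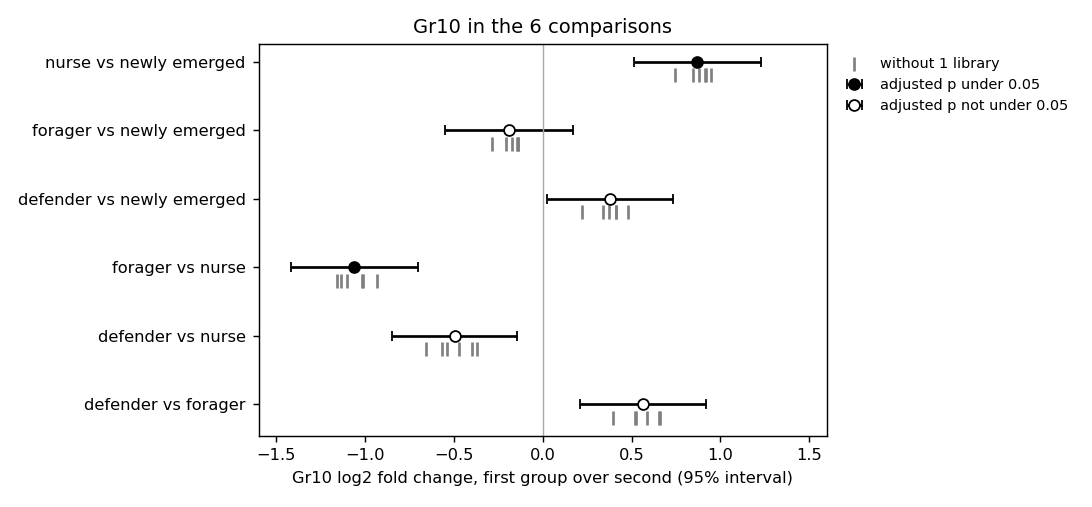
Log2 fold change of Gr10, the group named at the left of each row over the group named after it, with its 95% interval (edgeR, all 12 libraries); filled points passed at adjusted p under 0.05, and grey ticks are the values without 1 library of the pair. The ticks keep the sign of the point in each of the 6 comparisons, and range from -1.16 to -0.94 for foragers against nurses.

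The 2 called differences held without any 1 library. Without nurse library 1, which had the highest Gr10 level of all, the log2 fold change was 0.74 for nurses against newly emerged workers (adjusted p = 0.00650) and -0.94 for foragers against nurses (adjusted p = 0.0174; edgeR). Scaling moved the median of all genes: with upper-quartile in place of TMM factors it shifted by 0.12 for nurses and by 0.15 for foragers, both against newly emerged workers, and by -0.10 for defenders against foragers (log2). The Gr10 log2 fold change with those factors was 0.99 for nurses against newly emerged workers and -1.04 for foragers against nurses, both passing.

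Set against the odorant receptors, the antenna's main class of chemosensory receptor, the nurse level of Gr10 was again the highest, by a margin that depended on the co-receptor Or2. Per 1000 counts of 34 odorant receptor genes, a ratio that needs no scaling of the library, Gr10 had 4.26 ± 0.657 counts in defenders, 3.43 ± 0.894 in foragers, 7.90 ± 0.984 in nurses and 4.45 ± 0.347 in newly emerged workers (SD, n = 3 each). The single nurse libraries held 8.51, 6.77 and 8.43 counts per 1000, and the highest library of any other group was defender library 3 with 5.02. The exact permutation test of the log2 ratio over the 4 groups gave p = 0.00377. Or2, which odorant receptors need to form a channel, made up 38.4% to 41.6% of the summed receptor counts in defender libraries, 22.4% to 26.5% in forager, 16.5% to 31.6% in nurse and 46.8% to 49.1% in newly emerged libraries. Per 1000 counts of the other 33 receptors, Gr10 had 7.13 ± 1.27 counts in defenders, 4.55 ± 1.06 in foragers, 10.6 ± 1.69 in nurses and 8.53 ± 0.549 in newly emerged workers (SD, n = 3 each; exact permutation p = 0.000455 over the 4 groups). The nurse libraries then held 12.4, 9.15 and 10.1 counts and the newly emerged libraries 8.48, 8.01 and 9.10, a log2 difference of 0.30 against 0.82 with Or2 included, so most of that gap rested on Or2. Between foragers and nurses the log2 difference was -1.23 with and without Or2. Between foragers and newly emerged workers it was -0.40 with Or2 and -0.93 without, against -0.19 in CPM. Their libraries overlapped in CPM, but not per 1000 counts without Or2 (3.54 to 5.65 in foragers, 8.01 to 9.10 in newly emerged workers). On the ratio to all 34 receptors the defender libraries overlapped those of foragers and of newly emerged workers, and the log2 difference between defenders and newly emerged workers was -0.07, and -0.27 without Or2, against 0.38 in CPM. Both ratios were added after the levels were seen.

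Most of the odorant receptor genes rose in nurses against newly emerged workers. None passed between foragers and nurses, where only 4.01% of all genes did. For nurses against newly emerged workers 20 of 34 passed as higher and 1 as lower, where 18.9% of all genes passed as higher and 20.7% as lower, with a median log2 fold change of 0.51, beside 0.02 over all genes and 0.87 for Gr10. For foragers against nurses none of the 34 passed in edgeR, which is near the share over all genes. At an unadjusted p under 0.05, 5 were higher and 0 lower (edgeR), beside 1939 of 11271 genes in either direction. DESeq2 called 2 higher, beside 888 genes in all. The median log2 fold change of the 34 was 0.17, where Gr10 fell by 1.06 on the log2 scale. The co-receptor Or2 was at 366 ± 35.3 CPM in defenders, 198 ± 46.8 in foragers, 176 ± 69.4 in nurses and 324 ± 15.9 in newly emerged workers (SD, n = 3 each). Its mean was lowest in the group where that of Gr10 was highest, and it fell in nurses against newly emerged workers (adjusted p = 0.0157, edgeR).

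Antennal carrier genes were abundant in every library. The odorant binding protein Obp1, made by support cells of the odour hairs, was at 17420 ± 1100 CPM in defenders, 19422 ± 3799 in foragers, 18316 ± 424 in nurses and 9910 ± 982 in newly emerged workers (SD, n = 3 each). The summed level of 7 antennal markers was 49416 to 56903 CPM in defender libraries, 50345 to 71427 in forager, 54008 to 56640 in nurse and 28259 to 35279 in newly emerged libraries. Markers of neurons, of which 5 of 7 were in the table, summed to 3058 to 3438 CPM in defenders, 3148 to 3608 in foragers, 3607 to 4163 in nurses and 3342 to 3491 in newly emerged workers. Of these 5 neuron markers, 4 fell in defenders against nurses, where 3.11% of all genes did, and 2 rose in nurses against newly emerged workers, where 18.9% of all genes did (edgeR). In nurses against newly emerged workers 1 marker was lower at an unadjusted p under 0.05 (edgeR), and DESeq2 called 1 lower. In foragers against nurses none passed in edgeR, where 4.01% of all genes did, so none of 5 says little. There 3 were lower at an unadjusted p under 0.05 (edgeR), beside 1939 of 11271 genes in either direction. DESeq2 called 2 lower, beside 888 genes in all. The part of neuron content in the Gr10 level was not tested.

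Some markers of other tissues had their highest mean in nurses, as Gr10 did, but ordered the other groups differently. Mrjp1 encodes the main royal jelly protein, a secreted product of the hypopharyngeal glands. It had 27.3, 17.7 and 50.4 CPM in the defender libraries and 6.08, 0.860 and 41.7 CPM in the forager libraries. It had 1236, 238 and 132 CPM in the nurse libraries, and 1.53, 1.29 and 0.525 CPM in the newly emerged libraries. The library with the most Mrjp1 was also the one with the most Gr10 among defenders, among foragers and among nurses. Newly emerged library 3 had the most Gr10 and the least Mrjp1 of its group. The Gr10 spread there was of like size to the counting error, so that order says little. Across groups the match was loose: foragers and defenders had 16.2 ± 22.2 and 31.8 ± 16.8 CPM of Mrjp1, against 1.11 ± 0.525 CPM in newly emerged workers (SD, n = 3 each), while the Gr10 means were 3.89 CPM in defenders, 2.63 CPM in foragers and 3.00 CPM in newly emerged workers.

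All 8 head gland markers, Mrjp1 to Mrjp7 and the alpha-glucosidase gene Hbg3, were detected. They summed to 274 to 295 CPM in defenders, 428 to 432 in foragers, 392 to 2480 in nurses and 33.8 to 37.3 in newly emerged workers. The forager libraries held 440, 586 and 487 CPM of the 9 royal jelly genes. Of this, Mrjp9, which is not among the 8 markers, made up 376, 507 and 346 CPM. Most of the forager sum of the 8 markers was thus Hbg3, so that sum does not measure royal jelly RNA. For foragers against nurses 5 of the 8 fell and 1, Hbg3, rose, beside 2.1% and 1.91% of all genes (edgeR). For nurses against newly emerged workers all 8 rose, beside 18.9% of all genes (edgeR). Of the 9 royal jelly genes, the 2 with the smallest p across the groups followed different orders. Mrjp4 was at 0.750 ± 0.240 CPM in defenders, 0.309 ± 0.198 in foragers, 19.2 ± 16.2 in nurses and 0.248 ± 0.115 in newly emerged workers (SD, n = 3 each). Mrjp9, whose protein belongs to an older branch of the family, was at 449 ± 91.9 CPM in defenders, 410 ± 85.7 in foragers, 276 ± 19.0 in nurses and 78.9 ± 2.98 in newly emerged workers (SD, n = 3 each). The part of gland RNA in the Gr10 level was not tested.

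The means of the fat body marker Vg and the blood cell marker PPO were highest in nurses too. Vg, the yolk protein vitellogenin, had 26.6, 13.3 and 17.9 CPM in the defender libraries and 11.8, 11.1 and 9.78 CPM in the forager libraries. It had 25.6, 141 and 65.6 CPM in the nurse libraries and 40.6, 36.1 and 29.5 CPM in the newly emerged libraries. Nurse library 1, the highest for Gr10, was thus the lowest nurse library for Vg. The 5 fat body markers summed to 18.3 to 42.9 CPM in defenders, 12.2 to 18.9 in foragers, 42.7 to 229 in nurses and 35.2 to 49.5 in newly emerged workers. PPO, a prophenoloxidase gene, was at 11.4 ± 0.927 CPM in defenders, 9.63 ± 0.373 in foragers, 36.8 ± 11.3 in nurses and 22.8 ± 1.36 in newly emerged workers (SD, n = 3 each). It had 48.8, 35.3 and 26.4 CPM in the nurse libraries, so nurse library 1 was highest for PPO, Mrjp1 and Gr10. PPO was lower in defenders than in newly emerged workers (adjusted p = 0.000746, edgeR), where the Gr10 mean was the higher of the 2. Their part in the Gr10 result was not tested.

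**Figure D3:**
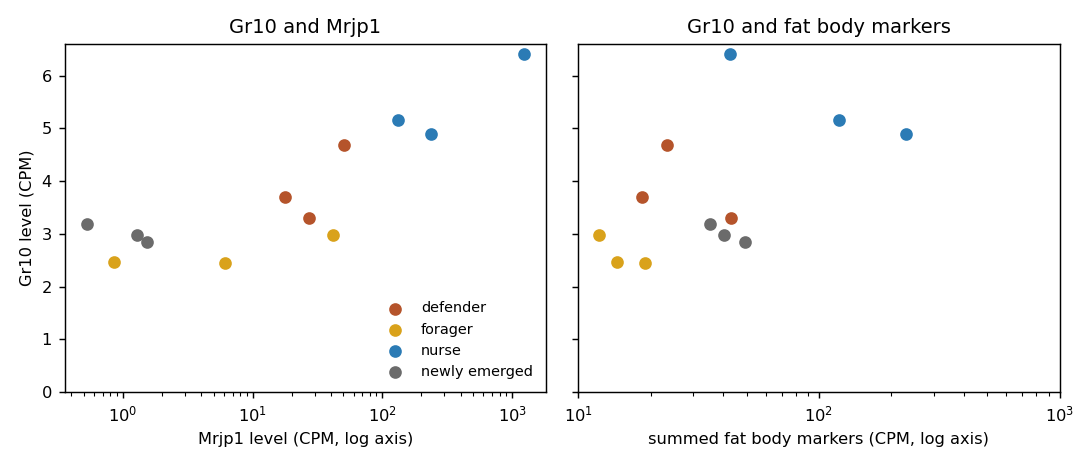
Gr10 level (CPM) in each of the 12 libraries against the level of Mrjp1 (left) and the summed level of 5 fat body markers (right), both in CPM on log axes, coloured by group. Nurse library 1 has the highest Gr10 (6.40 CPM) and Mrjp1 (1236 CPM) and the lowest fat body sum of the nurses (42.7 CPM).

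Muscle markers were highest in newly emerged workers. These markers, of which 6 of 7 were in the table, summed to 874 to 1169 CPM in defenders, 832 to 1032 in foragers, 936 to 1448 in nurses and 1994 to 2266 in newly emerged workers. The glial marker Eaat-2 was at 16.3 to 18.9 CPM in defenders, 17.2 to 18.7 in foragers, 20.3 to 22.0 in nurses and 18.8 to 27.7 in newly emerged workers. The 4 opsin genes, markers of photoreceptors, summed to 16.2 to 21.6 CPM in defenders, 13.4 to 19.8 in foragers, 15.9 to 61.9 in nurses and 17.9 to 27.4 in newly emerged workers. The nurse libraries held 61.9, 26.6 and 15.9 CPM of opsins, so nurse library 1, the highest for Gr10, was the highest here too, while nurse library 3 held more Gr10 and less opsin than nurse library 2. The part of photoreceptor RNA in the Gr10 level was not tested.

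The genes with a symbol nearest to Gr10 in profile were a transfer RNA gene and SIFR. Likeness was the root mean square difference in log2 CPM between profiles, each centred on its own mean over the 12 libraries; a gene with the same level in every library would differ from Gr10 by 0.43, and the median of all other genes was 0.50. Since these genes were picked for a profile like that of Gr10, their fold changes are given as a description, with no test. Of 468 genes with a symbol, 66 were nearer than a flat gene, and of all 11270 other genes 2146 were. The nearest was a copy of an alanine transfer RNA gene, TRNAA-CGC_1, at 0.27. Reads of such copies can be assigned to any of them, so its level is uncertain.

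The nearest protein-coding gene with a symbol was SIFR, which encodes the receptor of the neuropeptide SIFamide, also at 0.27. SIFR had 80.8, 74.9 and 90.5 CPM in the defender libraries and 57.5, 81.2 and 77.9 CPM in the forager libraries. It had 99.4, 118 and 94.7 CPM in the nurse libraries and 68.6, 59.1 and 66.8 CPM in the newly emerged libraries. The nurse libraries lay above all others, and defenders and foragers overlapped. Its log2 fold change was 0.68 for nurses against newly emerged workers, beside 0.87 for Gr10, and -0.52 for foragers against nurses, beside -1.06 for Gr10.

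The next 4 genes with a symbol lay between SIFR and a flat gene. Rfwd3, a ubiquitin ligase gene, differed by 0.32, and the DNA methyltransferase gene Dnmt3 by 0.32. PHRF1, a gene for a RING and PHD finger protein, differed by 0.33, and the homeobox gene cad (caudal) by 0.34, at 0.156 to 0.201 CPM in the group means. Among all 11270 other genes, with or without a symbol, these 4 ranked 54, 73, 110 and 118. In single libraries cad had only 10 to 27 counts, so its profile is uncertain. For nurses against newly emerged workers the log2 fold changes of Rfwd3 and Dnmt3 were 0.34 and 0.42. For foragers against nurses those of the 4 genes were -0.38 to -0.22. Among genes with only a LOC identifier the nearest were LOC113218672 at 0.24 and LOC725386 at 0.25, with log2 fold changes of -0.69 and -0.78 for foragers against nurses. Their function is not annotated in the sources used here.

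**Figure D4:**
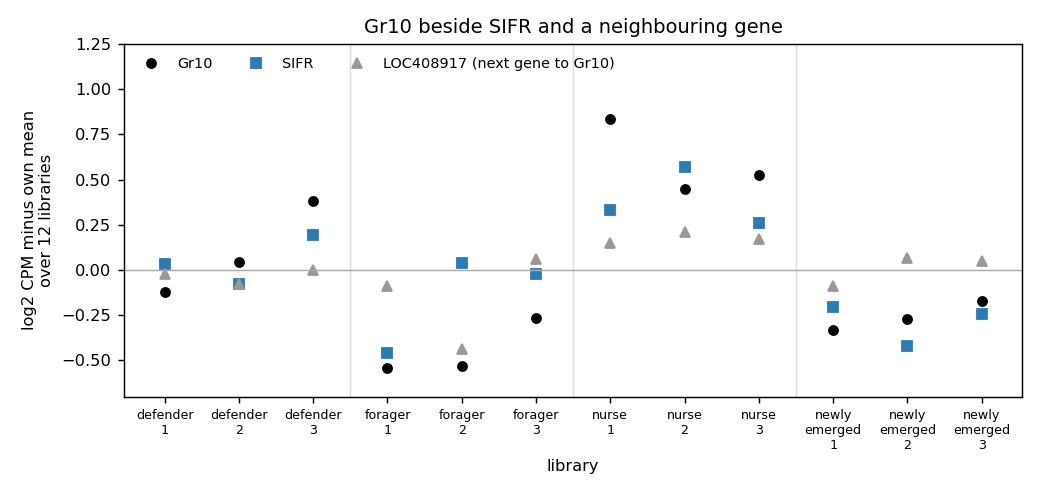
Log2 CPM of Gr10, SIFR and LOC408917, the gene next to Gr10 in the RefSeq list, in each library, minus the gene's own mean over the 12 libraries. Gr10 and SIFR are above 0 in all nurse libraries and below 0 in all newly emerged libraries.

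Neither of the genes next to Gr10 on the chromosome passed in any of the 6 comparisons. Nor did they pass the edgeR test over the 4 groups (adjusted p = 0.267 for LOC411204 and 0.126 for LOC408917). Only 48.5% of all genes passed that test, so a gene that does not pass is common. In the Amel_HAv3.1 gene list no gene overlaps Gr10, which has 3 transcripts there. The annotation behind the counts is not named, so sharing of reads with an overlapping gene was not tested. On one side LOC411204 was at 42.6 ± 3.39 CPM in defenders, 44.1 ± 2.50 in foragers, 43.7 ± 2.13 in nurses and 48.9 ± 4.86 in newly emerged workers, and passed in none of the 6 comparisons (SD, n = 3 each; smallest adjusted p = 0.124, edgeR). On the other side LOC408917 was at 365 ± 9.84 CPM in defenders, 339 ± 57.8 in foragers, 422 ± 9.10 in nurses and 377 ± 21.9 in newly emerged workers, and also passed in none (SD, n = 3 each; smallest adjusted p = 0.150). The next genes out were LOC100577553 and LOC408918. Both rose in nurses against newly emerged workers, by 0.44 on the log2 scale each (adjusted p = 0.0320 and 0.00746, edgeR), where 18.9% of all genes did. In foragers against newly emerged workers both rose too, by 0.40 and 0.48 (adjusted p = 0.0423 and 0.00356, edgeR). There 47.9% of all genes passed, and Gr10 had -0.19. For foragers against nurses their log2 fold changes were -0.05 and 0.04, beside -1.06 for Gr10.

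The 3 Gr10 transcripts could not be told apart here, since counts are per gene. The deposited tables of splice events list 491 events in these 12 libraries, and none is in Gr10.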

How the data were processed

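The 12 worker libraries hold antennal RNA read on the DNBSEQ platform, per the series' design text. The authors deposited raw counts per gene, whole numbers with no normalization, and splice events with an inclusion level per library as a fraction from 0 to 1; the deposited splice tables were searched only for Gr10. The sources used here name no aligner, counter, build or strand setting that fits bee RNA; the labels' protocols describe a chromatin assay on human cells and were not used. Groups and numbers come from the sample titles, to which the column initials were matched. In the titles of nurse library 1 and forager library 1 the replicate suffix differs from the number after the group name and repeats that of library 2; the number after the group name was used.

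Genes kept by filterByExpr (11271 of 12319) went with TMM scaling into edgeR 4.0.16 in R 4.3.3 (glmQLFit with robust = TRUE, glmQLFTest, two-sided; 4 group means, 8 residual degrees of freedom). A call is a Benjamini-Hochberg adjusted p under 0.05 over all genes tested, within each of 6 comparisons. The standard error is the size of the log2 fold change over the square root of F, and 95% intervals use the moderated degrees of freedom. Counting error covers read counting only. Log2 CPM used a prior count of 2. Exact permutation tests used the Gr10 values alone. The fits were tested on simulated data, where DESeq2 made more false calls than its nominal rate. Every simulated gene had the same spread beyond counting error, few genes changed, and only nurses against newly emerged workers was scored.

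Replicates differed by more than sampling noise (chi-square per gene 53 to 342). The correlation of deviations from group means between same-numbered libraries was over 0.1 in 3 of 3 pairs for defenders with foragers (0.222 to 0.423). The same held for defenders with newly emerged workers (0.176 to 0.342) and foragers with newly emerged workers (0.257 to 0.306). It was over 0.1 in 1, 1 and 2 of 3 pairs for nurses with defenders, foragers and newly emerged workers. This check of the data alone is the only ground for a pairing. The main fit of 4 group means had no replicate block, so its p-values for defenders, foragers and newly emerged workers ignore that pairing. Only the fits with a replicate block took it into account. Alternatives were other scaling, filters, DESeq2 1.42.0, a replicate block, pairwise fits and leaving out each library. Named genes were Gr10, the 6 symbols most like it, the nearest LOC genes, 2 neighbours per side, 2 royal jelly genes and tissue markers. The lists of amino acid transporters, TOR and insulin signalling, ionotropic receptors and pickpocket channels were to be filled from gene descriptions, which the gene list used here does not give, so these 4 lists stayed empty. Members and lists were chosen with earlier results of these data known.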

Additional observations from a re-analysis of the deposited data

How the results depend on the processing

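In every edgeR and DESeq2 fit tried, Gr10 remained higher in nurses than in newly emerged workers (log2 fold change 0.74 to 0.99, highest adjusted p = 0.00767) and lower in foragers than in nurses (-1.16 to -0.94, highest adjusted p = 0.0372, with the 6 libraries compared alone). The test over the 4 groups also held throughout (highest adjusted p = 0.00402). Defenders against nurses passed with upper-quartile factors (-0.57, adjusted p = 0.0499) and DESeq2 (-0.50), and defenders against foragers with DESeq2 (0.56) and in the 9 libraries other than nurses with the replicate block (0.56, adjusted p = 0.0286); on simulated data DESeq2 exceeded its nominal rate of false calls, which bears on its calls and counts here; without 1 library these were -0.66 to -0.37 and 0.39 to 0.66, with no call. Relative to odorant receptor counts, added after seeing the data, log2 differences were 0.33 (defender against forager), -0.0695 (defender against newly emerged), -0.89 (defender against nurse) and -0.40 (forager against newly emerged). Without Or2 in the sum, 0.30 (nurse against newly emerged), -0.27 (defender against newly emerged) and -0.93 (forager against newly emerged) moved, and the others stayed within 1 SD of the CPM values.

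Counts of genes called varied more. For defenders against foragers, defenders against nurses and foragers against nurses, with 0, 872 and 452 in the fit of all libraries, DESeq2 called 1278, 1858 and 888, and fits of 6 libraries called 876, 431 and 111. Leaving out 1 library gave 0 to 1, 99 to 1428 and 176 to 532. The share of calls that were higher was 47.7% with TMM and 63.9% with upper-quartile factors for nurses against newly emerged workers, 49.1% and 65.2% for foragers against newly emerged workers, and 59.9% and 41.1% for defenders against nurses. The cause was not tested.

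Of the same-numbered pairs, 13 of 18 had deviations correlated over 0.1 (median 0.217, from -0.358 to 0.423). Of 36 pairs with other numbers 6 did (median -0.119). Deviations from a group mean cancel within the group, so positive values for same-numbered pairs push those of the other pairs down. The lower median of the other pairs is thus not separate evidence of a pairing. Each same-numbered pair at or under 0.1 held a nurse library. Nurse library 3 correlated with library 1 of newly emerged workers (0.232), foragers (0.288) and defenders (0.364), but also with newly emerged library 3 (0.142). Nurse library 1 correlated with defender library 3 (0.359) and forager library 3 (0.130), but not with newly emerged library 3 (-0.041). Nurse library 2 correlated with library 2 of newly emerged workers (0.261), foragers (0.293) and defenders (0.156). The numbers of nurse libraries 1 and 3 may thus not match those of the other groups. The block over 12 libraries is therefore a weak check on the nurse comparisons. With the number as a replicate block over 12 libraries, 667 genes (defender against forager) and 1466 (defender against nurse) were called, and the Gr10 log2 fold changes were 0.88 for nurses against newly emerged workers and -1.07 for foragers against nurses, with no Gr10 call changed. In the 9 libraries other than nurses, fits added after seeing the data called 1246 genes for defenders against foragers with the replicate block and 975 without it, and the block changed no Gr10 call against newly emerged workers. The 6 genes with a symbol nearest to Gr10 were the same 6 with a prior count of 0.5 and with upper-quartile factors. The gustatory receptor list held Gr10 alone, so it had no count of its own. Depth limits little here, since Gr10 had at least 201 counts in each library; 3 libraries per group limit the precision.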

Other observations

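Genes with a symbol for insulin signalling, a nutrient-sensing pathway, are given for 2 members, which were chosen after their values were seen. InR-2, an insulin receptor gene, was at 17.8 ± 1.82 CPM in defenders, 18.7 ± 2.26 in foragers, 18.0 ± 4.95 in nurses and 10.5 ± 0.818 in newly emerged workers (SD, n = 3 each), and it rose in each of the 3 groups against newly emerged workers (edgeR, adjusted p = 0.00271 to 0.00624). A call there is common: 34.4% of all genes passed for defenders, 47.9% for foragers and 39.6% for nurses. The insulin-like peptide gene ILP-2 was at 0.550 ± 0.126 CPM in defenders, 0.590 ± 0.0747 in foragers, 0.499 ± 0.0381 in nurses and 0.402 ± 0.0297 in newly emerged workers (SD, n = 3 each), and it passed in none of the 6 comparisons (edgeR; smallest adjusted p = 0.0594). Between foragers and nurses the log2 fold changes were 0.06 for InR-2 and 0.24 for ILP-2 (edgeR, adjusted p = 0.913 and 0.636).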
